A study of Mus musculus with 16 samples.

Results

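The enzymes of glycolysis, glycogen turnover and the pentose phosphate pathway, with the glucose transporters that feed them, were compared between brown adipose tissue (BAT) and subcutaneous white adipose tissue (sWAT) of the mouse. The set was a list of 38 genes written by name: 3 transporters, 33 enzymes or enzyme subunits of glucose and glycogen metabolism measured on the array, and Pfkfb1 and G6pdx. It was written with earlier results of these data known. A gene counted as measured when at least 1 probe set of the array carried its symbol and no other. By this rule 36 of the 38 were measured, among 18194 such genes and 45101 probe sets in all, and Pfkfb1 and G6pdx had no such probe set.

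Glycolysis splits glucose into pyruvate in the cytosol, glycogen stores glucose as a branched polymer, and the pentose phosphate pathway turns glucose 6-phosphate into NADPH and ribose. Many of the steps can be carried out by isoenzymes from different genes, of which one is typical of skeletal muscle and others of liver, brain or most tissues. Brown adipose tissue burns fuel to make heat, takes up glucose when it is active, and holds glycogen.

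The animals were untreated male LACA mice of 25 ± 3 g on standard chow, with no age or genotype stated, and both tissues were dissected from each of the 4 animals according to the methods. BAT came from between the shoulder blades. The labels number 4 replicates per tissue, and each number has a biological and a technical array, here the first and the second array, which makes 16 arrays. The deposited value of a probe set is a log2 signal from which its median over the 16 arrays was taken away, so a value describes how a replicate stands to the others and never how strongly a gene is expressed. A value of a gene is the mean over its probe sets and over the 2 arrays of a replicate, values are listed in the order of replicates 1 to 4, and a difference is BAT minus sWAT with its standard error (n = 4 replicates in each tissue). The fit took the replicate number as a block, so its standard errors and p-values rest on the spread of the same-numbered differences. The labels do not say which samples share an animal. Over the 36 genes the median standard error was 0.20 with the block and 0.23 without it, where 28 genes were higher and 3 lower. In whole tissue, fewer cells of a type and less RNA per cell cannot be told apart.

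Low signal at the 5' ends of control transcripts marked 2 arrays, the biological one of sWAT replicate 3 and the technical one of BAT replicate 1, and without them the same 36 calls were made. Although all mice are labelled male, the values of Xist, an RNA made from an inactive X chromosome, were 5.74, 6.26, 6.36 and -0.26 in BAT and -0.27 to -0.11 in sWAT. The mean of the Y-linked genes Eif2s3y, Uty and Kdm5d was -1.98, -2.17, -2.33 and 0.18 in BAT and 0.20 to 0.39 in sWAT. BAT replicates 1 to 3 therefore went against their labels. Over all replicates, tissue and the sex read from these genes change together, except in BAT replicate 4. A difference between the tissues thus cannot be told apart from one between the sexes. Of the list, Pgk1 and Phka1 lie on the X chromosome. Values with BAT replicate 4 alone are given below. The 14 brown adipocyte genes were all higher in BAT, among them Ucp1, the protein that uncouples respiration, by 7.58 ± 0.49. The 23 skeletal muscle genes were also all higher in BAT, where 21% of all genes were, and most B and T cell genes were higher in sWAT, where 17.5% of all genes were. The marker lists were chosen with earlier results of these data known, so their counts are no independent result. Centred values do not show whether a marker is absent.

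Of the 36 genes, 28 were higher in BAT and 4 were lower at an adjusted p under 0.05 by limma, against 21% and 17.5% of all 18194 genes. Slc2a1, Slc2a3, Hk3 and Eno2 were the 4 lower genes, and Hk1, Pfkp, Pfkfb2 and Pygb were not called. A difference of at least 2-fold was found for 22 genes higher in BAT and 3 lower, where 7.13% and 8% of all genes were so called. In 26 genes all 4 BAT replicates lay above all 4 sWAT replicates and in 3 all lay below, which was the case for 28% and 17.4% of all genes. The median difference over the 36 genes was 1.31 on the log2 scale, against 0.15 over all genes. All 9 genes listed as muscle isoforms were higher in BAT, with a median of 1.81, as were the 2 isoforms typical of both muscle and fat. Of the 14 other isoforms of the same families, 7 were higher, 4 lower and 3 not called, with a median of 0.59. Among the 11 genes without a muscle counterpart on the list, 10 were higher. The muscle class is not limited to genes of muscle alone, since it holds Gys1, the glycogen synthase of muscle and most tissues. Pkm, of muscle and most other tissues, was placed among the 11. With BAT replicate 4 as the only BAT sample the counts were 12 higher and 1 lower (all genes, 10.7% and 9.08%), and with the paired test of the methods 13 and 2 (all genes, 10.1% and 9.55%).

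**Figure D1:**
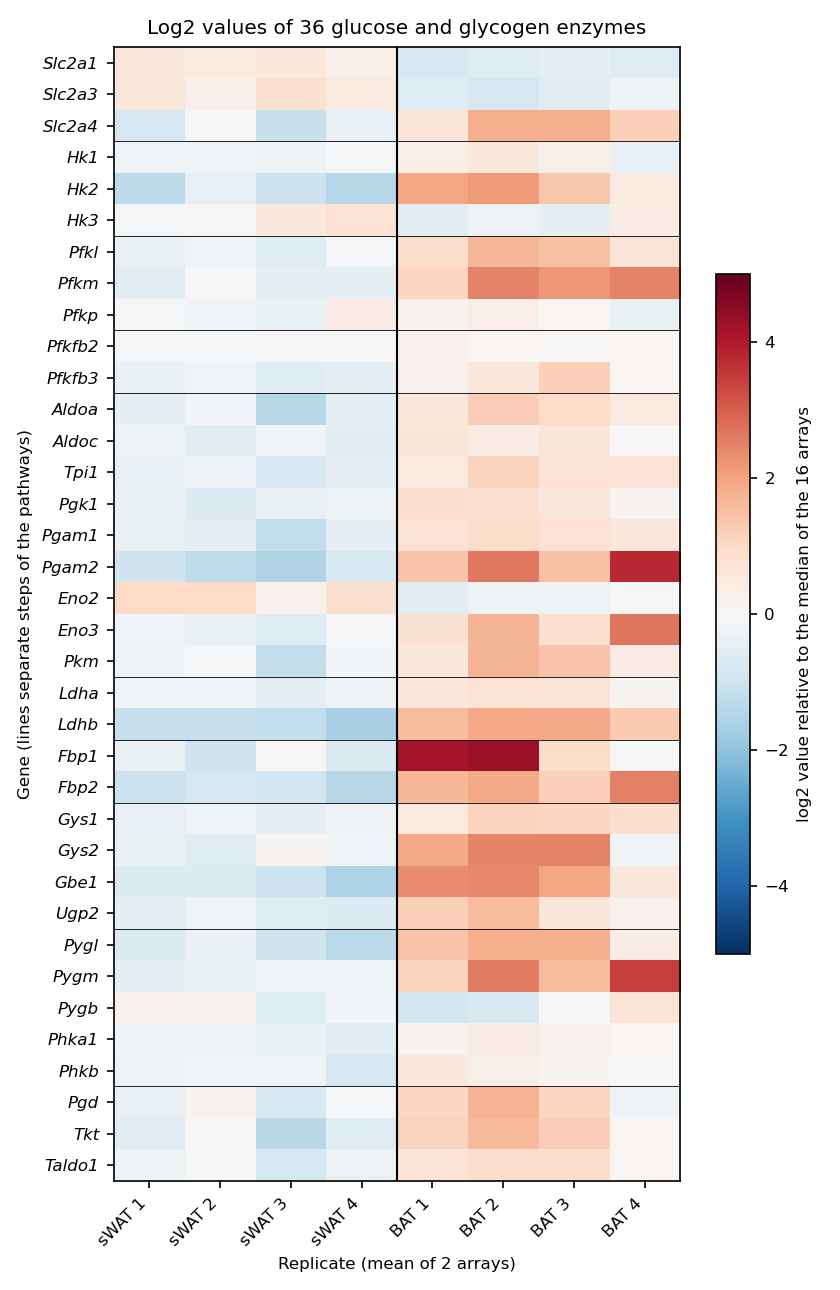
Log2 value of each of the 36 measured genes in the 4 sWAT and the 4 BAT replicates (columns, each the mean of 2 arrays), relative to the median of the 16 arrays, with red above and blue below that median and with horizontal lines between steps of the pathways. Most genes are red in BAT, Slc2a1, Slc2a3 and Eno2 are red in sWAT, and Fbp1 is at 4.13 and 4.32 in BAT replicates 1 and 2 but at -0.02 in BAT replicate 4.

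**Figure D2:**
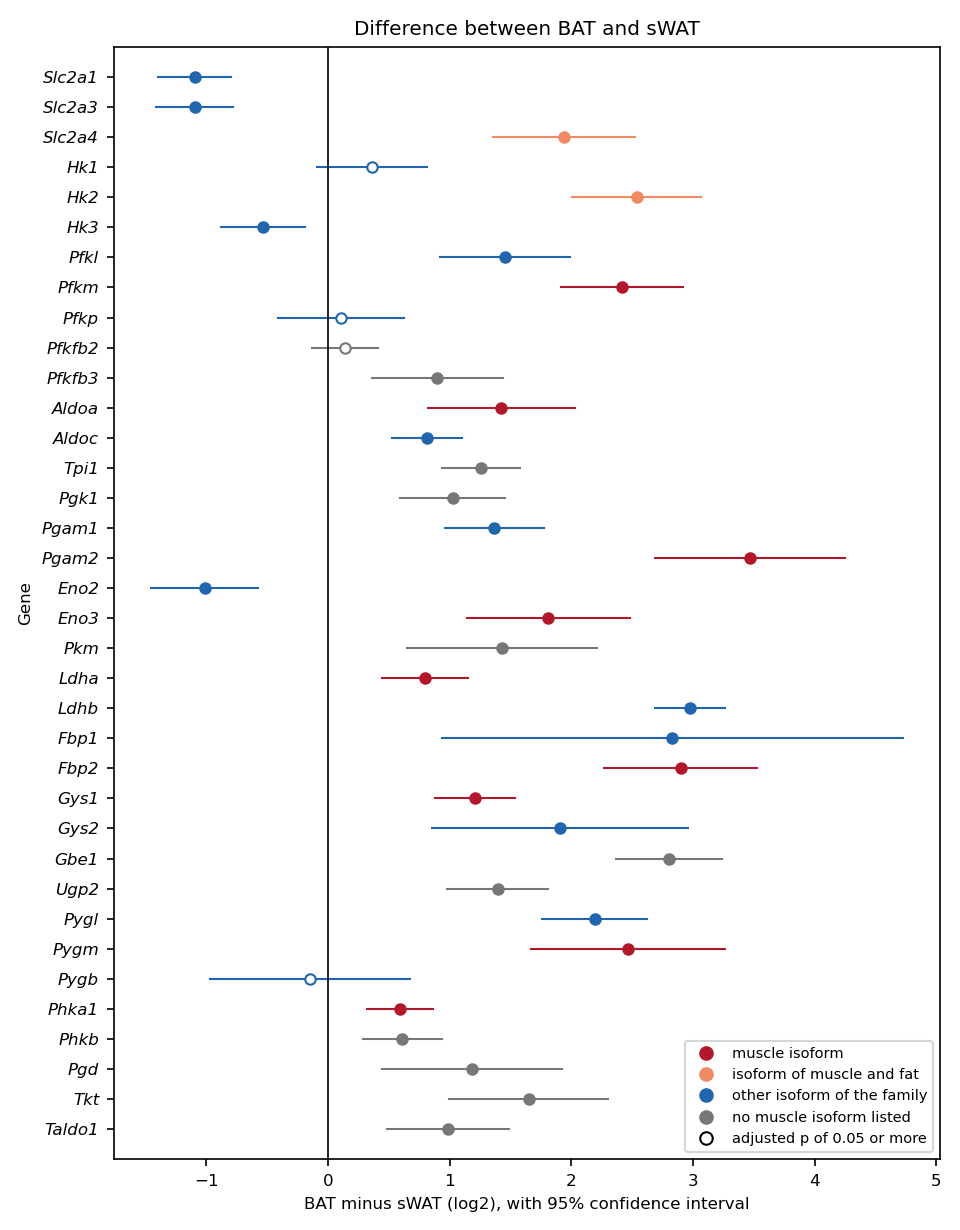
Difference between BAT and sWAT (log2, horizontal axis) for the 36 genes with 95% confidence intervals from limma, coloured by isoform class, where open circles mark an adjusted p of 0.05 or more. Pgam2 has the largest difference at 3.47, and the interval of Fbp1 is the widest, from 0.94 to 4.73.

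The glucose transporters divided by isoform. Slc2a1 encodes GLUT1, the transporter of basal uptake in many cell types. Its values were 0.58, 0.45, 0.53 and 0.28 in sWAT and -0.80, -0.64, -0.44 and -0.66 in BAT. All BAT replicates lay below all sWAT replicates, and Slc2a1 was 2.13-fold lower in BAT (-1.09 ± 0.13, adjusted p = 0.00075). Slc2a4 encodes GLUT4, the insulin-responsive transporter of muscle and fat, and went the other way. It stood at -0.86, 0.00, -1.12 and -0.41 in sWAT and at 0.60, 1.78, 1.81 and 1.17 in BAT, where replicate 1 was the lowest but still above every sWAT replicate. The difference was 1.94 ± 0.25, or 3.83-fold (adjusted p = 0.00112), and on the second arrays alone it was 1.23 and was not called (adjusted p = 0.054).

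Slc2a3 encodes GLUT3, the high-affinity transporter of neurons and some blood cells. With values of 0.56, 0.25, 0.79 and 0.51 in sWAT and -0.65, -0.85, -0.52 and -0.25 in BAT the tissues did not overlap, and the mean over its 4 probe sets was lower in BAT by 2.14-fold (-1.10 ± 0.13, adjusted p = 0.000935). The 4 probe sets disagreed. A pair of them, both of the types that can also bind other transcripts, differed by -2.45 and -2.12, while the other pair lay at -0.04 and 0.23. Without probe sets of those types the difference of Slc2a3 was 0.09 (adjusted p = 0.546), so its direction depends on which probe sets are read.

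Hexokinases trap glucose in the cell by phosphorylating it. Hk2, the isoform of insulin-sensitive tissues, differed by 5.81-fold in favour of BAT (2.54 ± 0.22, adjusted p = 0.000252). The sWAT replicates had -1.33, -0.42, -1.07 and -1.41 and the BAT replicates 1.98, 2.14, 1.35 and 0.45. All BAT replicates were above sWAT, with replicate 4 the closest to it. Hk1, the isoform of brain and many other tissues, had -0.19, -0.20, -0.26 and -0.06 in sWAT and 0.29, 0.55, 0.29 and -0.40 in BAT. Its groups overlapped only through BAT replicate 4, and the difference of 0.36 ± 0.19 was not called (adjusted p = 0.166, 95% interval -0.09 to 0.82), while without replicate 4 it was 0.60 and was called (adjusted p = 0.0276). Hk3, known mainly from myeloid blood cells, was lower in BAT by 1.45-fold (-0.53 ± 0.14, adjusted p = 0.0257). It had -0.08, 0.06, 0.54 and 0.72 in sWAT and -0.53, -0.30, -0.43 and 0.36 in BAT. The groups overlapped, with BAT replicate 4 inside the sWAT range. Without replicate 1, 2 or 3 Hk3 was not called, at -0.56, -0.59 and -0.39, nor on the second arrays alone (-0.43) or without the replicate block (adjusted p = 0.0887). Its 2 probe sets differed, at -0.81 against -0.26. The 10 macrophage and neutrophil genes had means of -1.20, -0.61, -0.56 and 0.66 in BAT and -0.17 to 1.21 in sWAT, and their part in the Hk3 values was not tested.

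Phosphofructokinase catalyses the committed step of glycolysis. Pfkm, its muscle isoform, had -0.57, 0.00, -0.43 and -0.47 in sWAT and 1.07, 2.48, 2.16 and 2.49 in BAT. All BAT replicates were higher, replicate 1 by the least, and the difference was 5.34-fold (2.42 ± 0.21, adjusted p = 0.000249). Pfkl, the liver isoform, was 2.74-fold higher in BAT (1.45 ± 0.23, adjusted p = 0.00267), with -0.37, -0.18, -0.60 and -0.06 in sWAT and 0.87, 1.65, 1.45 and 0.64 in BAT. The groups did not overlap, but of its 3 probe sets 1 differed by only 0.33 and was not called, against 1.32 and 2.71. Pfkp, the platelet isoform, had -0.05, -0.20, -0.32 and 0.40 in sWAT and 0.18, 0.31, 0.11 and -0.34 in BAT. Its replicates were mixed between the tissues, and the 95% interval of the difference ran from -0.41 to 0.63 around 0.11.

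The Pfkfb genes encode bifunctional enzymes that make and break down fructose 2,6-bisphosphate, the activator of phosphofructokinase. Pfkfb3, whose enzyme has high kinase activity, was higher in BAT by 1.86-fold (0.90 ± 0.23, adjusted p = 0.0199). Its BAT values of 0.20, 0.55, 1.20 and 0.11 varied more than those of sWAT, from -0.60 to -0.16, and the second arrays alone did not call it (0.71, adjusted p = 0.0574). Pfkfb2, a form known from heart, was not called, with a difference of 0.14 (95% interval -0.13 to 0.41), although its BAT replicates, at 0.06 to 0.22, lay above those of sWAT, at -0.06 to 0.04.

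All 9 measured genes from aldolase to pyruvate kinase differed between the tissues, 8 higher and 1 lower in BAT. Aldolase A, the muscle form encoded by Aldoa, had -0.44, -0.15, -1.43 and -0.46 in sWAT and 0.54, 1.21, 1.01 and 0.45 in BAT, and Aldoc, the brain form, had -0.28, -0.58, -0.19 and -0.56 and 0.61, 0.38, 0.62 and 0.02. Neither gene overlapped between tissues, although BAT replicate 4 was the lowest BAT replicate in both. Aldoa was 2.68-fold higher in BAT (1.42 ± 0.26, adjusted p = 0.00487) and Aldoc 1.76-fold (0.81 ± 0.12, adjusted p = 0.00222). All 5 probe sets of Aldoa were of a type that can also bind other transcripts.

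Tpi1, which interconverts the triose phosphates, and Pgk1, which makes the first ATP of the pathway, have no muscle isoform on the list. Tpi1 had -0.42, -0.25, -0.78 and -0.50 in sWAT and 0.51, 1.10, 0.73 and 0.74 in BAT, a 2.39-fold difference (1.26 ± 0.14, adjusted p = 0.000542). Pgk1 had -0.39, -0.67, -0.38 and -0.31 in sWAT and 0.87, 0.78, 0.57 and 0.12 in BAT, and was 2.03-fold higher in BAT (1.02 ± 0.18, adjusted p = 0.00476). Both separated the tissues, Pgk1 with BAT replicate 4 nearest to sWAT. Pkm encodes the pyruvate kinase of muscle and most other tissues, in forms that this value does not separate. Its values were -0.24, -0.04, -1.20 and -0.15 in sWAT and 0.56, 1.71, 1.42 and 0.40 in BAT, so that sWAT replicate 3, which holds an array of low 5' signal, stood below the other sWAT replicates. Pkm was 2.7-fold higher in BAT (1.43 ± 0.33, adjusted p = 0.0137), and on the second arrays alone it was at 0.99 and was not called (adjusted p = 0.0618).

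Phosphoglycerate mutase moves the phosphate group ahead of the enolase step. Pgam2, its muscle isoform, had the largest difference of the 36 genes. Its values were -1.01, -1.27, -1.51 and -0.82 in sWAT and 1.44, 2.64, 1.45 and 3.75 in BAT. All BAT replicates were far above sWAT, replicates 2 and 4 the most, and the difference was 11.1-fold (3.47 ± 0.33, adjusted p = 0.000334). Pgam1, the form of most tissues, had -0.37, -0.48, -1.23 and -0.50 in sWAT and 0.72, 0.91, 0.70 and 0.56 in BAT. The 4 BAT replicates of Pgam1 lay close together, and it was 2.58-fold higher (1.37 ± 0.17, adjusted p = 0.00105).

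Enolase showed isoforms in opposite directions. Eno3, the muscle form, had -0.18, -0.38, -0.63 and -0.09 in sWAT and 0.75, 1.71, 0.82 and 2.68 in BAT, with the order of BAT replicates seen in Pgam2, and was 3.51-fold higher in BAT (1.81 ± 0.28, adjusted p = 0.0027). Eno2, the neuronal form, stood at 0.99, 1.0, 0.22 and 0.81 in sWAT and at -0.51, -0.27, -0.26 and 0.00 in BAT. All its BAT replicates were below sWAT, a 2.02-fold difference in favour of sWAT (-1.01 ± 0.19, adjusted p = 0.00535). The 6 nerve genes gave 2 higher in BAT, S100b and Sox10, and 1 lower, Stmn2 (all genes, 21% and 17.5%). Their means were 0.22, 0.20, 0.04 and 0.39 in BAT and -0.34 to -0.08 in sWAT, and their part in Eno2 was not tested.

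Pgam2, Pygm and Fbp2 are among the muscle isoforms that stood highest in the BAT replicates with the highest skeletal muscle genes, while Pgam1 is not. The 250 bases before the start of these genes are shown in this order, those of Pgam1 for contrast. They are RefSeq sequences on GRCm38.p6, written 5' to 3' on the gene's strand: chr11:5803797-5804046 on the minus strand, chr19:6384158-6384407 on the plus strand, chr13:62858401-62858650 on the minus strand and chr19:41911621-41911870 on the plus strand. Capitals mark CAGCTG, an E-box of the kind that myogenic factors bind, and CTATTTTTA, a letter string of the MEF2 type. Eno3 and Pfkm also stood highest in those BAT replicates but are not shown, and their windows held neither string.
Pgam2: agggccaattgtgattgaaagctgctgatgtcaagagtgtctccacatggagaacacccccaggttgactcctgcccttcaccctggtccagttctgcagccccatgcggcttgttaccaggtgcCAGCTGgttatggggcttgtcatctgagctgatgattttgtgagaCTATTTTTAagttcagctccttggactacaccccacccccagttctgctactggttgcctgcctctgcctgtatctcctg
Pygm: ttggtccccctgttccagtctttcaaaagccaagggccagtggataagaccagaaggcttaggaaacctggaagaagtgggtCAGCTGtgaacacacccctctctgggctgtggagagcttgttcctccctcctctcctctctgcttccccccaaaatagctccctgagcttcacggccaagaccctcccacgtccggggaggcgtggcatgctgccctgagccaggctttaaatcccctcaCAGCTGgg
Fbp2: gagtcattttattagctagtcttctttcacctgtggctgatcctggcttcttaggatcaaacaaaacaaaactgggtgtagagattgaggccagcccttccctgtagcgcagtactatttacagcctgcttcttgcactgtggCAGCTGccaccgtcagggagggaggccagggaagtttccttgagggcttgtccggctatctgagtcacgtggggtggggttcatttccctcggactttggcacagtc
Pgam1: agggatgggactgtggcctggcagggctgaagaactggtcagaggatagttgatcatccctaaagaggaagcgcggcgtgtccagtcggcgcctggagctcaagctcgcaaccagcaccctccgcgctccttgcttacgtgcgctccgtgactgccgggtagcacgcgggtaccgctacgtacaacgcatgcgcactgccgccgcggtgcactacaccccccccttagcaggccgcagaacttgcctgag

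Windows of this length were found for 33 of the 36 genes, 47 windows in all since some genes have several starts, and none for Gys2, Slc2a3 and Slc2a4. Each motif was searched on both strands. CAGCTG, which reads the same on both, lay in 5 of the 15 windows of muscle isoforms (33.3%), those of Gys1, Pgam2, Fbp2, Pygm and Phka1, and in 0 of the 14 windows of other isoforms. It lay in 8 of the 47 windows of the measured genes (17%) and in 13% of 32851 windows of all genes. CTATTTTTA lay in 1 of the 47 windows, that of Pgam2, and in 0.454% of all. TNAAGGTCA, a string that estrogen-related receptors bind, lay in 0 of the 47 and in 1.14% of all. ACGTGC, a string bound by hypoxia-inducible factors, lay in 6 of the 47 (12.8%), those of Slc2a1, Pfkfb3, Pgk1, Pgam1, Ldha and Ugp2, and in 4.92% of all. The motifs were chosen with the sequences in view, and a match describes letters, not a bound site.

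In lactate dehydrogenase the muscle subunit changed less than the heart subunit. Ldhb, the heart subunit, which favours the conversion of lactate to pyruvate, had -1.17, -1.17, -1.23 and -1.60 in sWAT and 1.60, 1.92, 1.90 and 1.32 in BAT. The groups were far apart with little spread, and Ldhb was 7.88-fold higher in BAT (2.98 ± 0.12, adjusted p = 2.36e-05), the smallest adjusted p of the 36 genes, with all 4 of its probe sets between 2.83 and 3.16. Ldha, the muscle subunit, had -0.23, -0.15, -0.50 and -0.27 in sWAT and 0.51, 0.74, 0.64 and 0.14 in BAT. It was higher in BAT without overlap, but by 1.74-fold (0.80 ± 0.15, adjusted p = 0.00584).

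Fructose bisphosphatase runs the phosphofructokinase step backwards. Fbp1, the liver isoform, and Fbp2, the muscle isoform, are neighbours on the chromosome with 0 protein-coding genes between them in the RefSeq table. Fbp2 had -1.09, -0.84, -0.97 and -1.39 in sWAT and 1.68, 1.90, 1.20 and 2.54 in BAT. Each BAT replicate was above sWAT, replicate 4 the most, and Fbp2 was 7.47-fold higher (2.90 ± 0.27, adjusted p = 0.00029). Fbp1 had -0.38, -0.99, 0.08 and -0.68 in sWAT and 4.13, 4.32, 0.93 and -0.02 in BAT. BAT replicates 1 and 2 stood far above all others, replicate 3 stood somewhat above sWAT, and replicate 4 lay within the sWAT range. The mean difference of 2.83 ± 0.80 (adjusted p = 0.0297) was not called without replicate 1 (2.27, adjusted p = 0.131) or without replicate 2 (2.01, adjusted p = 0.081).

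All 4 measured genes of glycogen synthesis were higher in BAT. Ugp2 makes UDP-glucose, the donor of glucose units, and had -0.50, -0.20, -0.63 and -0.67 in sWAT and 1.20, 1.57, 0.59 and 0.22 in BAT, a 2.63-fold difference (1.40 ± 0.18, adjusted p = 0.00105). Gys1, the glycogen synthase of muscle and most tissues, had -0.39, -0.21, -0.44 and -0.26 in sWAT and 0.50, 1.11, 1.07 and 0.86 in BAT and was 2.31-fold higher (1.21 ± 0.14, adjusted p = 0.000699). Neither of these overlapped between tissues. Gbe1, the branching enzyme, had -0.68, -0.67, -1.03 and -1.55 in sWAT and 2.35, 2.39, 1.97 and 0.58 in BAT. It was 6.99-fold higher (2.80 ± 0.18, adjusted p = 8.88e-05), although BAT replicate 4 was well below the other BAT replicates. Gys2, the liver synthase, had -0.31, -0.60, 0.15 and -0.20 in sWAT and 1.88, 2.46, 2.49 and -0.18 in BAT. Replicates 1 to 3 of BAT were high and replicate 4 was within the sWAT range, as for Fbp1, so the 3.75-fold difference (1.91 ± 0.44, adjusted p = 0.0143) joins unlike replicates, and without replicate 1 it was 1.81 and was not called (adjusted p = 0.0689).

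Glycogen phosphorylase releases glucose 1-phosphate from glycogen. Pygm, the muscle isoform, had -0.45, -0.31, -0.17 and -0.18 in sWAT and 1.15, 2.60, 1.56 and 3.45 in BAT. All BAT replicates were above sWAT, in the order 4, 2, 3 and 1, and the difference was 5.53-fold (2.47 ± 0.34, adjusted p = 0.00148). Pygl, the liver isoform, had -0.68, -0.34, -0.99 and -1.36 in sWAT and 1.41, 1.83, 1.80 and 0.37 in BAT. It was 4.57-fold higher (2.19 ± 0.18, adjusted p = 0.000194) with replicate 4 the lowest in BAT. Pygb, the brain isoform, had 0.22, 0.15, -0.61 and -0.13 in sWAT and -0.91, -0.75, 0.00 and 0.69 in BAT. BAT replicates 1 and 2 lay below sWAT and replicate 4 above it, and the difference of -0.15 ± 0.35 was not called (adjusted p = 0.742, 95% interval -0.97 to 0.67).

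Phosphorylase kinase switches glycogen phosphorylase on. Its muscle regulatory subunit Phka1 was higher in BAT by 1.51-fold (0.59 ± 0.11, adjusted p = 0.00673) and its beta subunit Phkb by 1.53-fold (0.61 ± 0.14, adjusted p = 0.0128). In both genes the BAT replicates, at 0.08 to 0.39 and 0.00 to 0.54, lay above the sWAT replicates, at -0.58 to -0.26 and -0.83 to -0.12. Of the 3 probe sets of Phka1, 1 was called, at 0.84. Phkb was not called on the first arrays alone (0.32, adjusted p = 0.224) or without replicate 4 (0.54, adjusted p = 0.0532).

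The 3 measured enzymes of the pentose phosphate pathway were higher in BAT, and in each BAT replicate 4 was the lowest BAT replicate. Tkt, a transketolase that moves 2-carbon units between sugars, had -0.55, 0.02, -1.38 and -0.62 in sWAT and 1.12, 1.64, 1.22 and 0.09 in BAT, a 3.14-fold difference (1.65 ± 0.28, adjusted p = 0.00359). Taldo1, the transaldolase of the same branch, had -0.25, -0.04, -0.85 and -0.29 in sWAT and 0.67, 0.87, 0.89 and 0.10 in BAT and was 1.98-fold higher (0.98 ± 0.21, adjusted p = 0.0106). Both genes separated the tissues narrowly, with BAT replicate 4 next to sWAT replicate 2. Pgd, which makes NADPH from 6-phosphogluconate, had -0.42, 0.17, -0.79 and -0.12 in sWAT and 1.02, 1.75, 1.06 and -0.25 in BAT. Its BAT replicate 4 was among the sWAT replicates, and the 2.27-fold difference (1.18 ± 0.31, adjusted p = 0.0235) was not called without replicate 1, 2 or 3, at 1.10, 1.05 and 0.96.

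Whether the muscle isoform changed more than its relatives was tested in the 10 families that hold both kinds. In each replicate the value of the muscle isoform, or of the muscle and fat isoform, was taken minus the mean of the other listed isoforms, and BAT was compared with sWAT by an exact two-sided permutation test over the 8 replicates, adjusted over the 10 families. In 6 families this isoform lay further towards BAT, each at the smallest p the test can give (exact p = 0.0286, adjusted p = 0.0408). In 2 of them, with Slc2a4 and Hk2, it was the isoform of muscle and fat. Isoforms were called in opposite directions in the Slc2a, Eno and Hk families. The direction of Slc2a3 depended on its probe sets, and the call of Hk3 on single replicates. The shift was 3.03 on the log2 scale for Slc2a4 against Slc2a1 and Slc2a3, and 2.82 for Eno3 against Eno2. It was 2.62 for Hk2 against Hk1 and Hk3, 2.10 for Pgam2 against Pgam1, and 1.64 for Pfkm against Pfkl and Pfkp. For Pygm against Pygl and Pygb it was 1.45, but against Pygl alone it was 0.27 (exact permutation p = 0.886), so it rested on Pygb, and on the first arrays alone the family did not pass (exact permutation, adjusted p = 0.107).

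Lactate dehydrogenase went the other way. Ldha minus Ldhb was -1.18 ± 0.07 (SD, n = 4) in BAT and 1.01 ± 0.25 in sWAT, a shift of -2.18 towards the heart subunit with the same exact permutation p of 0.0286. In 3 families the test was not passed. Aldoa against Aldoc shifted by 0.61 (exact permutation, adjusted p = 0.214, but 1.14 and 0.0408 on the first arrays alone), Gys1 against Gys2 by -0.70 (exact permutation, adjusted p = 0.349) and Fbp2 against Fbp1 by 0.07 (exact permutation, adjusted p = 0.971). In the last of these the BAT replicates ran from -2.46 to 2.55 and the sign turned without replicate 3, at -0.35, or 4, at -1.0. On the second arrays alone 0 of the 10 families passed, with adjusted p of 0.0714 or more by the exact permutation test, while 6 of the 7 shifts that had passed lay between 1.44 and 2.68 and that of lactate dehydrogenase was -2.11. Probe sets can differ in how strongly they respond, so unequal shifts describe these probe sets rather than numbers of molecules.

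**Figure D3:**
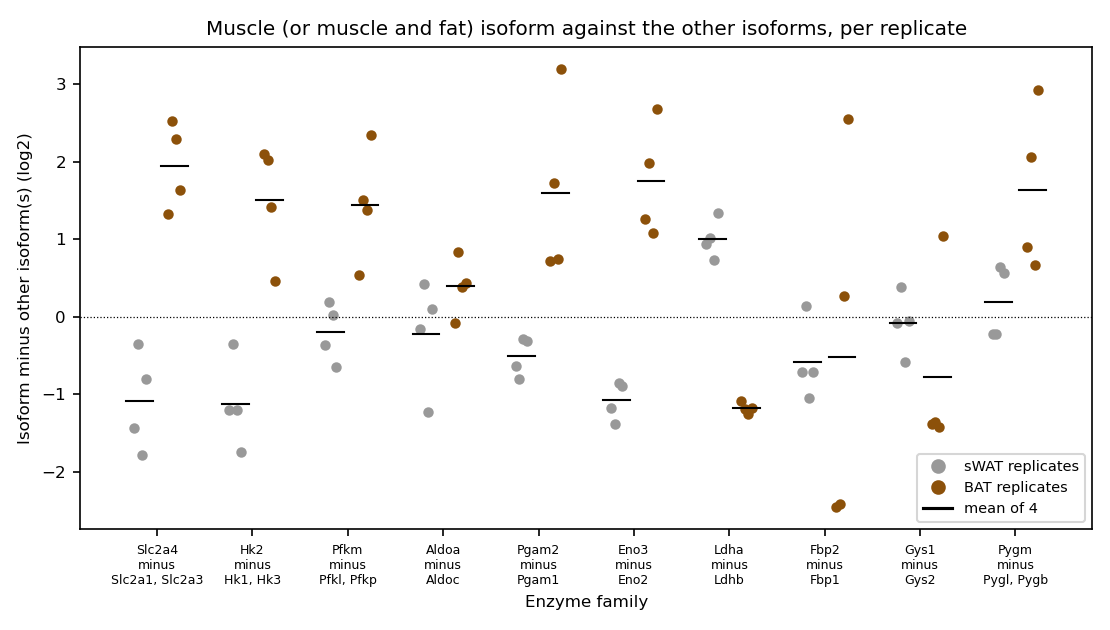
Value of the muscle isoform, or for Slc2a4 and Hk2 the isoform of muscle and fat, minus the mean of the other isoforms (log2, vertical axis) in each replicate of 10 enzyme families, with sWAT in grey, BAT in brown and lines at the means of 4 replicates. In BAT the points lie above all sWAT points in 6 families and below them in the lactate dehydrogenases, while in Fbp they spread from -2.46 to 2.55.

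The BAT replicates differed among themselves, and 5 of the 9 muscle isoforms were highest in the same BAT replicates as the skeletal muscle genes. The 23 skeletal muscle genes had means of 1.91, 2.83, 1.76 and 3.33 in BAT and -1.66 to -1.47 in sWAT. All 23 were higher in BAT by at least 2-fold, where 7.13% of all genes were (median difference 3.66, the largest Tnnc2 at 6.47 and the smallest Myoz1 at 1.70). This list was chosen with earlier results of these data known, so its count describes the list and is no independent result. BAT replicates 4 and 2 were thus the highest in muscle genes. The same 2 replicates were the highest of BAT in Pgam2, Eno3, Pygm, Fbp2 and Pfkm. Replicate 4 was the highest BAT replicate in these 5 of the 9 muscle isoforms (55.6%, all genes 28.9%) and the lowest in 3 of them, Aldoa, Ldha and Phka1 (33.3%, all genes 25.7%), while in Gys1 it was neither. Since all BAT replicates carried these muscle genes, the part of muscle RNA in the higher muscle isoforms of BAT was not tested.

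Over the whole list BAT replicate 4 was often the lowest of BAT. This was so in 22 of the 36 genes (61.1%, all genes 25.7%), among them the 3 muscle isoforms just named, and in 20 of the 28 genes called higher in BAT (71.4%, against 44.5% of all genes so called). The 14 brown adipocyte genes, led by Ucp1 at 7.58 and with Lhx8 at 1.33 the smallest, had means of 2.58, 2.80, 2.66 and 1.55 in BAT and -2.20 to -1.40 in sWAT (median difference 4.13). Their lowest BAT value was thus also that of replicate 4, in 11 of the 14 genes (all genes 25.7%, all genes called higher in BAT 44.5%). Fbp1, Gys2 and Pgd were in the sWAT range in that replicate, and Gbe1, Hk2, Tkt and Pygl lay between sWAT and the other BAT replicates. The macrophage and neutrophil genes were highest of BAT in replicate 4 in 10 of 10 cases and the dividing cell genes in 9 of 9 (all genes 28.9%). With 4 BAT replicates no relation between these lists and the enzymes was tested.

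**Figure D4:**
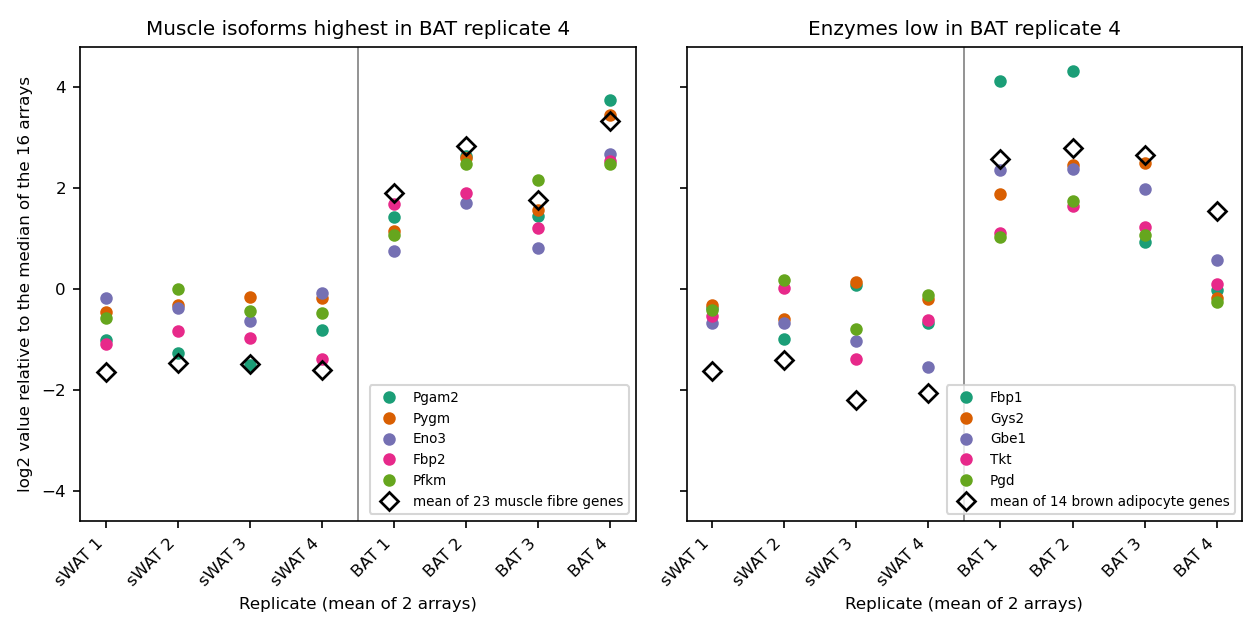
Log2 values of the 5 muscle isoforms that were highest of BAT in replicate 4 beside the mean of 23 skeletal muscle genes (left) and of 5 enzymes low in BAT replicate 4 beside the mean of 14 brown adipocyte genes (right) in each replicate, relative to the median of the 16 arrays. On the left BAT replicates 2 and 4 are the highest, and on the right BAT replicate 4 lies between -0.25 and 0.58 for the 5 enzymes.

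BAT replicate 4, whose sex-linked genes matched those of sWAT, was also set alone against the 4 sWAT replicates. It was the BAT replicate with the highest mean of the skeletal muscle genes (3.33) and the lowest of the brown adipocyte genes (1.55). A lone sample gives the size of a difference but not its spread. Among the 9 muscle isoforms, Pgam2 differed by 4.90, Pygm by 3.72, Fbp2 by 3.61, Eno3 by 3.00, Pfkm by 2.86 and Gys1 by 1.19. Aldoa, Ldha and Phka1 had their lowest BAT value in this replicate. Of the other genes, Ldhb stood at 2.61, Slc2a4 at 1.77, Gbe1 at 1.56, Hk2 at 1.51, Tpi1 at 1.23, Pfkl at 0.94 and Slc2a1 at -1.12. Some genes kept most of their difference, such as Pgam1 at 1.20 against 1.37 with all replicates, Aldoa at 1.07 against 1.42, Slc2a3 at -0.78 against -1.10 and Eno2 at -0.75 against -1.01. Others fell further, with Pygl at 1.21, Fbp1 at 0.48, Gys2 at 0.06 and Pgd at 0.04, and Hk3 changed sign to 0.06. A plain paired test of the 4 numbered pairs, which the methods used, called after adjustment over all genes 13 of the 36 higher and 2 lower (all genes, 10.1% and 9.55%). These were Hk2, Pfkm, Aldoc, Tpi1, Pgam1, Pgam2, Ldhb, Fbp2, Gys1, Gbe1, Ugp2, Pygl and Phka1, and, lower, Slc2a1 and Slc2a3.

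Among other genes of the same pathways, the largest differences were those of subunits that bring protein phosphatase 1 to glycogen. Of 45 further symbols listed for glucose transport, gluconeogenesis, glycogen and the pentose phosphate pathway, 39 were measured. The test placed 19 higher in BAT and 1 lower (all genes, 21% and 17.5%) and did not call 19, with a median difference of 0.45 against 0.15 over all genes. At least 2-fold higher were 8, where 7.13% of all genes were. The largest were Ppp1r3b at 3.68 ± 0.18 and Ppp1r3c at 2.40 ± 0.17, which with Ppp1r3d at 1.60 encode such subunits. Ldhd, a mitochondrial D-lactate dehydrogenase, differed by 2.08, and Slc2a5, the fructose transporter, by 1.41. The rest of the 8 were Pgls, the lactonase of the pentose phosphate pathway (1.33), Slc2a8, a further transporter (1.05), and Pgm1, a phosphoglucomutase (1.04). The lower gene was Phkg2, the catalytic subunit of phosphorylase kinase in liver and testis, at -0.53 ± 0.17.

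Gapdh, the enzyme between Tpi1 and Pgk1 that serves as a reference gene, had -0.44, -0.29, -2.10 and 0.00 in sWAT and -0.28, 1.02, 1.11 and 0.38 in BAT over its probe sets. sWAT replicate 3, with its array of low 5' signal, was far below the rest, and the difference of 1.27 ± 0.47 was not called (adjusted p = 0.0708). G6pc, Pck1, Pklr and Slc2a2, genes known from glucose handling in the liver and chosen after their values were seen, were not called, with differences of 0.16, 0.36, 0.32 and 0.23. The probe sets of Pck1 ran from -0.12 to 1.03. By contrast, the liver isoforms Fbp1, Gys2, Pygl and Pfkl were called higher in BAT, at 2.83, 1.91, 2.19 and 1.45. Fbp1 and Gys2 were within the sWAT range in BAT replicate 4. When arrays were scaled to Gapdh and Actb, 26 of the 36 isoenzyme genes stood higher in BAT and 3 in sWAT, where 10.4% of all genes were called in each direction, the calls lost being Hk3, Phka1 and Phkb. This fit gave the genes the same standard error of 0.31, so a call there rests on the size of the difference and not on the spread of each gene.

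At the level of probe sets, the 36 genes had 76, of which 52 were higher in BAT, 6 lower and 18 not called, where 15.1% and 17.3% of all 45101 probe sets were higher and lower. A single probe set stood for 17 genes. Of the 19 genes with several, 13 had all of them called the same way and 6 did not, which were Slc2a1, Slc2a3, Hk3, Pfkl, Pfkfb3 and Phka1. In Slc2a1 1 of the 3 missed the threshold, at -0.76, and in Pfkfb3 1 of the 2, at 0.62.

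The remaining marker lists, also chosen with earlier results of these data known, set the frame for both tissues. Beside them, 21% of all genes were higher in BAT, 17.5% were lower and 8% were lower by at least 2-fold. All 9 measured B cell genes were lower in BAT (at least 2-fold Ms4a1, the largest, Fcmr, Pou2af1, Cd79b, Cr2, Cd22, Blk and Cd79a), as were 8 of 9 T cell genes (at least 2-fold Il7r, the largest, Cd28, Ccr7, Cd5, Cd3d, Cd3g and Cd8a) and 9 of 9 dividing cell genes (Mki67, the largest, Birc5, Ccna2, Cdk1, Aurkb, Mcm5, Bub1, Plk1 and Top2a). The means of these lists were 1.89 to 2.62, 1.56 to 2.14 and 0.96 to 1.86 over the sWAT replicates and -2.17 to -1.61, -1.83 to -1.16 and -1.95 to -0.67 over the BAT replicates. Of 10 macrophage and neutrophil genes 4 were lower in BAT, with Lyz2 and Csf1r at 2-fold, and of 6 general adipocyte genes Pparg was higher and Retn lower. Of 3 red blood cell genes Alas2 was higher. Slc2a1, Slc2a3 and Eno2 were the 3 genes that stood higher in every sWAT replicate than in every BAT replicate. The means of the B cell, T cell and dividing cell lists did the same. The direction of Slc2a3 depended on which of its probe sets were read, and the part of lymphocytes in these genes was not tested.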

How the data were processed

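RNA of BAT and sWAT was hybridized by the authors to 16 Affymetrix mouse genome arrays. The authors ran RMA and quantile normalization in GeneSpring and set each probe set relative to its median over all samples, and the deposited values are on that log2 scale. They give no signal level, and the 4 replicates per tissue limit the precision. The platform annotation named 34958 probe sets with 1 gene, 932 with several and 9211 with none, and the first kind was averaged into 18194 genes. After averaging both arrays of a replicate, the difference BAT minus sWAT was fitted across genes, and across probe sets, by lmFit and eBayes of limma 3.58.1 (R 4.3.3). Replicate numbers entered as a block because the methods use a paired test, with Benjamini-Hochberg adjustment. Genes were called at an adjusted p under 0.05. In a check of the pairing, the deviations of same-numbered samples from their tissue means correlated at -0.15, 0.08, -0.34 and 0.26, so the numbers were not shown to pair the samples. BAT replicates 1 to 3 also differed in Xist and the Y-linked genes from the sWAT replicates of the same number, as tissues of the same mouse would not. The fit was tested on simulated data. The 38 genes, the isoform classes, the other pathway genes and the marker lists were chosen with earlier results of these data known. Every measured gene of the list is named. Replicate values are given for both kinds of isoform of a family and for genes at 2-fold, and of the other lists the largest differences and those at 2-fold are named where they are 10 or fewer. Exact permutation tests of the isoforms were two-sided. Sequences were read from RefSeq promoter windows (GRCm38.p6). The alternatives were no block, single arrays, other averages or filters of probe sets, other scalings, a plain paired t-test of the same-numbered replicates and left-out replicates. The authors' own table of fold changes was not used. Plots were made in Python 3.11.15 with matplotlib 3.10.9.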

Additional observations from a re-analysis of the deposited data

Results flagged for a closer look

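In 4 of 72 groups of 4 replicates, 1 replicate stood apart from the other 3 by a gap that, divided by the range, passed Dixon's critical value, where chance gives about 1 in 20. Pfkfb2 stood at 0.22 in BAT replicate 1 and at 0.06 to 0.09 in the other BAT replicates. Pgam1 was at -1.23 in sWAT replicate 3, against -0.50 to -0.37 in the other sWAT replicates. Pkm was at -1.20 in the same replicate, against -0.24 to -0.04. BAT replicate 1 and sWAT replicate 3 each hold an array of low 5' signal. Ldhb was at -1.60 in sWAT replicate 4, against -1.23 to -1.17.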

How the results depend on the processing

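Of the 36 genes, 35 or 36 kept direction and side of the threshold without the replicate block, on the first arrays, without the low 5' arrays, with medians over probe sets and with centred arrays, as did 35 of 35 with probe sets of above-median spread, but on the second arrays 32, with 25 higher and 3 lower and the calls of Slc2a4, Hk3, Pfkfb3 and Pkm lost. Same-numbered samples were not shown to be pairs, and those numbered 1 to 3 differed in sex-linked genes. Dropping the replicate block gave 28 genes higher and 3 lower in BAT, and 5092 and 3481 of all genes. The counts of called genes depended on the test: a plain paired t-test of the same-numbered replicates called 1830 and 1737 of all genes (13 and 2 of the 36) and 2243 and 2873 probe sets. Scaling to Gapdh and Actb gave 1885 and 1886. BAT replicate 4 alone gave 1946 and 1652 genes (12 and 1 of the 36) and 3015 and 4384 probe sets, with Hk3 at 0.056. Without probe sets of the _x and _s types 27 of the 35 genes left were higher and 2 lower, and Slc2a3 stood at 0.091. Aldoa, with probe sets of the _x type only, was the gene lost. Leaving out 1 replicate number gave 2338 to 3697 genes higher and 2289 to 3069 lower, 4038 to 6470 and 5726 to 7599 probe sets, and 25 to 28 and 3 to 4 of the 36, the lowest counts of genes and probe sets higher in BAT being those without replicate 2. The Fbp contrast ran from -1.0 without replicate 4 through -0.35 without replicate 3 to 0.95 without replicate 2. On second arrays 0 families passed the isoform test, and with sign flips of the 4 pairs none can. The causes were not tested.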
